A study of Mus musculus with 12 samples.

Results

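The 10 mouse genes of the immunoreceptor tyrosine-based activation motif (ITAM) costimulation pathway described here were measured in 4 groups of cultured bone marrow cells. They are the adaptors Tyrobp and Fcer1g, the receptors Trem2 and Oscar, the kinases Syk, Btk and Tec, the adaptor Blnk, the phospholipase Plcg2 and the exchange factor Vav3. They were taken by name and matched to their Ensembl gene identifiers, each symbol to 1 identifier, and they make up 10 of the 41388 genes in the count tables. Of the 10, 9 had enough counts to be tested, and Oscar did not.

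All 12 libraries came from primary bone marrow cells of C57BL/6 mice, with 3 libraries in each group. The KO groups carry floxed Asxl2 with LysM Cre, which is driven by the lysozyme gene of myeloid cells, and the flox groups carry floxed Asxl2. Asxl2 encodes a chromatin protein. KO OC and flox OC cells received 2% M-CSF and RANKL at 50 ng/ml for 2 days, KO BMM and flox BMM cells received 2% M-CSF alone for the same 2 days, and all had first been cultured for 5 days in alpha MEM with 10% serum. The study asked how transcription differs between macrophages and osteoclasts of the 2 genotypes. None of these groups carried LysM Cre with intact Asxl2, so an effect of Cre or of the lysozyme allele and an effect of Asxl2 loss cannot be told apart. Whether replicates came from separate mice or cultures is not given in the labels, so the p-values rest on differences among libraries that could be of technical origin.

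Osteoclast precursors need a second signal beside RANKL, and it comes from receptors such as TREM2 and OSCAR that have no signalling tail of their own. TREM2 pairs with the adaptor TYROBP (also called DAP12) and OSCAR with FCER1G (the Fc receptor gamma chain). Src family kinases phosphorylate the tyrosines of the adaptor's ITAM, SYK docks there, and the TEC family kinases BTK and TEC, with the scaffold BLNK, bring about activation of PLCG2. PLCG2 releases the messengers that raise calcium and, through calcineurin, activate NFATC1, while VAV3 acts on small GTPases and the cytoskeleton. Macrophages use the same chain downstream of Fc receptors and TREM2.

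The ITAM is what defines the adaptors, so its coding sequence is shown for both, from the GENCODE M21 transcripts on GRCm38. Capitals mark the codons for the paired tyrosines and for the leucine or isoleucine that follows each of them. The Tyrobp stretch covers codons 92 to 106 of the Tyrobp transcript and lies at chr7:30415670-30417382 on the plus strand, with an intron inside that span. The Fcer1g stretch covers codons 65 to 79 of the main Fcer1g transcript and lies at chr1:171229889-171230072 on the minus strand.
Tyrobp: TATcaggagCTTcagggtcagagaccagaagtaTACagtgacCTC
Fcer1g: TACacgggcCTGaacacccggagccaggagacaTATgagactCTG
In both, 7 codons separate the end of the first tyrosine unit from the next tyrosine. With 6 to 8 codons allowed between them, the pattern was found in 602 of 21752 coding genes scanned, or 2.77%, and in no coding transcript of the other 8 genes. A second annotated Fcer1g coding transcript does not hold it, and the counts do not separate transcripts.

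Promoters are shown for the receptors, because Trem2 had a large change with RANKL among these genes and Oscar gave almost no reads. The windows are the 250 bases upstream of the RefSeq start on GRCm38.p6, at chr17:48346151-48346400 on the plus strand for Trem2 and chr7:3616158-3616407 on the minus strand for Oscar. Capitals mark matches to the motifs searched.
Trem2: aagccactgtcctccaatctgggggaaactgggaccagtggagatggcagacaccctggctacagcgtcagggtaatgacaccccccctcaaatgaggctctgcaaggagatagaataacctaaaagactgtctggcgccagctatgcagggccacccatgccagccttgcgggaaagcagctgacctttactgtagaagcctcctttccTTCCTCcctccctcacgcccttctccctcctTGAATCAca
Oscar: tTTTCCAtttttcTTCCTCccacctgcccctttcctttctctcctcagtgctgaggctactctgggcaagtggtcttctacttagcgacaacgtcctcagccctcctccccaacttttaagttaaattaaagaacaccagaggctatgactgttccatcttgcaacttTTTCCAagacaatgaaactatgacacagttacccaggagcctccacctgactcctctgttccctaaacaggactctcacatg
The motifs searched, on both strands, were GAGGAA (core of PU.1 sites), TGANTCA (AP-1), CACGTG (an E-box that MITF can bind) and TGGAAA (NFAT), and no matches overlap in these windows. In the Trem2 window GAGGAA lay on the opposite strand with its left base 40 bases upstream of the start, and TGANTCA began 9 bases upstream. In the Oscar window GAGGAA lay 237 bases upstream and TGGAAA lay 249 and 82 bases upstream, all on the opposite strand. A promoter window was found in RefSeq's table for 9 of the 10 genes, with 12 windows in all, and GAGGAA was found in 3 of these windows, TGANTCA in 2, CACGTG in 1 and TGGAAA in 2. Among all 32851 windows of the table the shares were 23.3%, 6.75%, 6.02% and 18.6% in the same order, and a match is only a description of letters.

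Library totals ran from 18489873 to 21667237 counts. Levels are CPM, the counts relative to library size after scaling by edgeR's TMM factors. Asxl2 averaged 13.7 ± 1.24 CPM in KO OC cells against 73.4 ± 2.27 CPM in flox OC cells, and 15.1 ± 0.265 CPM in KO BMM cells against 93.1 ± 3.01 CPM in flox BMM cells (SD, n = 3 each). Its highest KO library, at 15.4 CPM, lay below its lowest flox library, at 71.0 CPM. Counts were taken over all annotated exons, and which exons the floxed allele spans was not known here, so in the KO level reads of exons outside the deletion and reads of cells without deletion cannot be told apart. Within groups, flox BMM replicates differed most from each other, by 2.71 to 5.05 times sampling noise (chi-square per degree of freedom), against 1.23 to 2.00 in the other groups. Macrophage markers (10 genes) were all present, with a summed level of 17390 to 17629 CPM in KO OC, 16305 to 16720 in flox OC, 31332 to 32155 in KO BMM and 35589 to 36664 in flox BMM. Lyz2 made up most of these sums, at 11666, 10623, 19553 and 21792 CPM in that order of groups. It is the lysozyme gene of LysM Cre, so in its genotype differences the Cre allele and Asxl2 loss cannot be told apart. Osteoclast markers (10 genes) summed to 885 to 920 CPM in KO OC, 1314 to 1362 in flox OC, 806 to 820 in KO BMM and 849 to 927 in flox BMM. Tcirg1 made up most of these sums, at 706, 925, 717 and 745 CPM in that order of groups. Mmp9 averaged 21.9, 35.6, 1.69 and 2.06 CPM, and Dcstamp 22.8, 57.6, 5.11 and 14.8 CPM. The osteoclast marker Acp5 averaged 40.8, 132, 20.3 and 28.9 CPM in that order of groups, and Calcr, the calcitonin receptor of mature osteoclasts, was at 0 in 3 groups and at 0.0165 CPM in flox OC cells. Megakaryocyte and platelet markers (8 genes) summed to 16.3 to 17.5 CPM in KO OC, 135 to 141 in flox OC, 48.5 to 53.1 in KO BMM and 344 to 409 in flox BMM, with Gp6 at 0 in all groups. Mast cell and basophil markers (8 genes) stayed at or under 3.36 CPM, with Fcer1a and Tpsb2 at 0 in all groups. Neutrophil markers (10 genes) stayed at or under 9.53 CPM, with Ly6g at 0. T and NK cell markers (10 genes) stayed at or under 4.94 CPM, with Ncr1, Nkg7 and Gzma at 0. Dendritic cell markers (9 genes) stayed at or under 178 CPM. Most of that sum was Itgax, with group means of 132 to 163 CPM, followed by Fscn1 at 2.68 to 8.55 CPM. Of the 9 tested osteoclast markers, 7 were higher and 1 lower in OC than in BMM cells of each genotype (edgeR, adjusted p under 0.05). The lower one was Itgb3 in both, at log2 -0.62 in KO and -1.46 in flox cells. The OC label therefore stands for cells in which most tested osteoclast markers, Acp5 among them, were higher than in BMM cells. Itgb3 was lower in these cells, and Calcr was at or near 0. In bulk RNA, fewer cells of a type and less RNA per cell cannot be told apart.

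With RANKL, most of the pathway genes were lower. In KO cells 8 of the 9 tested genes were lower in OC than in BMM and 0 were higher, and in flox cells 7 were lower and 0 were higher (edgeR's quasi-likelihood test, Benjamini-Hochberg adjusted p under 0.05 over 13030 genes). The shares of all tested genes called in either direction were 70.5% in KO and 74.8% in flox cells, the shares called lower were 35% and 37.8%, and those called higher 35.5% and 37%. Vav3, Tec, Trem2 and Fcer1g had the larger changes, at log2 -0.82 or beyond, while Btk was not called in either genotype. Scaling by library size alone moved the median log2 change of all genes to 0.14 in KO and 0.16 in flox cells, against 0.0017 and -0.0036 with TMM, and then 6 of the 9 genes were lower and 1 higher in KO and 5 were lower and 2 higher in flox cells. Under that scaling 63.5% of the called genes were higher in KO and 62.8% in flox cells, against 50.4% and 49.5% with TMM. Between genotypes the differences were small. In OC cells 2 genes were higher and 5 lower in KO, with 41.3% of all tested genes called, and in BMM cells 3 were higher and 2 lower, with 39.9% called. The median absolute log2 difference of the 9 genes was 0.13 in OC cells and 0.073 in BMM cells, beside 0.14 in OC cells and 0.14 in BMM cells over all tested genes. For 5 of the 9 genes the genotype difference itself changed with RANKL, against 21.9% of all tested genes; 1 of them was called higher and 4 lower, against 12.3% and 9.53% of all genes.

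**Figure D1:**
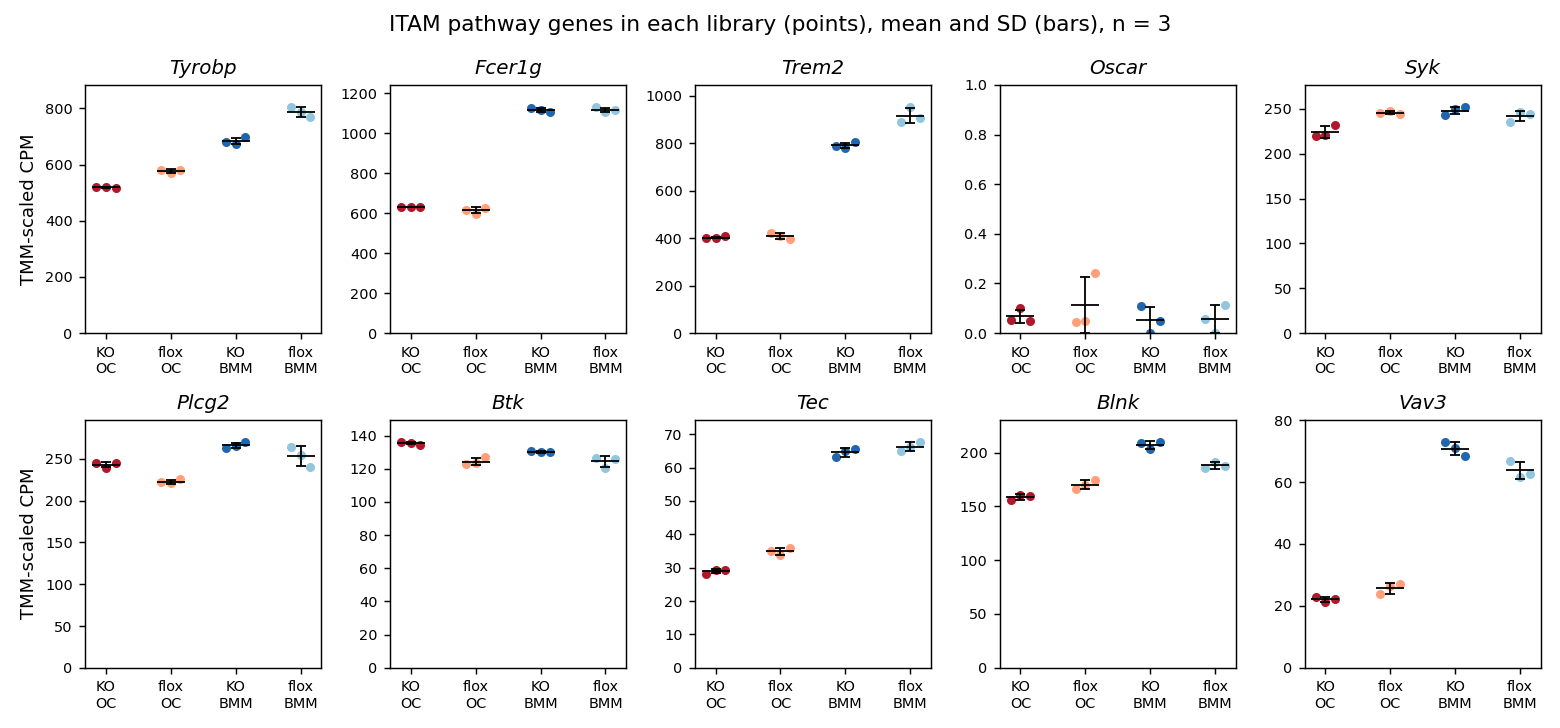
TMM-scaled CPM (y axis, linear from 0) of the 10 genes in the 4 groups (x axis); points are libraries, the long tick is the mean and the bar the SD of 3 libraries. For Tyrobp, Fcer1g, Trem2, Tec, Blnk and Vav3 all OC libraries lie below all BMM libraries. Syk, Plcg2 and Btk stay within 1.19-fold between their highest and lowest group means. Oscar, drawn on an axis from 0 to 1 CPM, is near 0 in every library.

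Per length, the adaptors were the most abundant of the 10 genes in every group. Divided by the length of annotated exons, Tyrobp averaged 920 CPM per kb in KO OC, 1025 in flox OC, 1213 in KO BMM and 1395 in flox BMM cells. Fcer1g averaged 790, 767, 1396 and 1396 CPM per kb in that order of groups. Trem2 came after them in every group, between 81.4 CPM per kb in KO OC and 185 in flox BMM cells, and its exon length of 4946 bases includes sequence outside the 1088 bases of its main coding transcript. On that transcript's length Trem2 kept this rank, at 370 CPM per kb in KO OC, 378 in flox OC, 727 in KO BMM and 842 in flox BMM cells. Vav3 was lowest of the 9 tested genes, between 3.69 CPM per kb in KO OC and 11.8 in KO BMM cells, and Tec was next, between 7.98 and 18.2. Plcg2, Btk, Blnk and Syk lay between these, with group means of 24.0 to 62.0 CPM per kb of annotated exons. The order among these depends on the length used. On the length of its main coding transcript, 2097 bases against 5991 of exons, Blnk averaged 75.7 CPM per kb in KO OC and 81.2 in flox OC cells. In KO BMM it averaged 98.9 and in flox BMM cells 89.7, which put it ahead of Plcg2 in every group.

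Tyrobp (ENSMUSG00000030579, chr7:30413788-30417577, plus strand, 5 exons) was lower in KO than in flox cells and lower with RANKL. Its libraries held 520, 520 and 516 CPM in KO OC, 582, 570 and 582 CPM in flox OC, 682, 674 and 697 CPM in KO BMM, and 803, 788 and 769 CPM in flox BMM cells. No pair of groups overlapped, and the order from the highest was flox BMM, KO BMM, flox OC and KO OC. It was lower in KO than in flox cells by log2 -0.16 ± 0.026 in OC (SE, adjusted p = 2.73e-06) and by -0.20 ± 0.026 in BMM (adjusted p = 8.49e-09). It was lower in OC than in BMM cells by log2 -0.40 ± 0.026 in KO and -0.44 ± 0.026 in flox cells (adjusted p = 1.18e-18 and 1.3e-20). The genotype difference was not called different between OC and BMM (log2 0.045, 95% interval -0.029 to 0.12).

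Fcer1g (ENSMUSG00000058715, chr1:171229572-171234365, minus strand, 5 exons) was lower with RANKL, and no genotype difference was called. Its libraries held 632, 631 and 632 CPM in KO OC, 616, 597 and 627 CPM in flox OC, 1127, 1115 and 1108 CPM in KO BMM, and 1129, 1107 and 1116 CPM in flox BMM cells. The OC libraries all lay below the BMM libraries, the BMM groups overlapped, and KO OC lay just above flox OC. Its level was lower in OC than in BMM cells by log2 -0.82 ± 0.026 in KO and -0.86 ± 0.026 in flox cells (SE, adjusted p = 1.76e-31 and 1.62e-32). Between genotypes the log2 difference was 0.042 in OC cells (95% interval -0.010 to 0.094, adjusted p = 0.202) and -0.00032 in BMM cells (-0.051 to 0.051, adjusted p = 0.994), the sign of the second changing with the scaling. Macrophage markers moved with the RANKL difference. Of 10 markers, 9 were lower in KO OC than in KO BMM and 10 were lower in flox OC than in flox BMM. Of all tested genes 35% and 37.8% were called lower in these comparisons. The part of the markers in the RANKL differences of Fcer1g and of the other pathway genes was not tested.

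The balance between the adaptors was also read inside each library, as the ratio of Tyrobp to Fcer1g counts per kb, which does not depend on scaling between libraries. This pair and the ratios below were chosen after values were seen. The ratio was 1.16 ± 0.00576 in KO OC and 1.34 ± 0.0190 in flox OC cells, and 0.869 ± 0.0202 in KO BMM and 0.999 ± 0.0183 in flox BMM cells (SD, n = 3 each). KO lay below flox in each pair and OC above BMM in each genotype, with no overlap. The exact two-sided permutation p was 0.1 for each, which is the smallest that 3 against 3 libraries can give. The level of the ratio depends on the gene lengths used, while its relative differences between groups do not. On the length of its main coding transcript Fcer1g averaged 937 CPM per kb in KO OC cells, above Tyrobp at 920. Another adaptor of this kind, Hcst (DAP10), which carries a PI3K-binding motif in place of an ITAM, averaged 9.59 CPM per kb in KO OC, 11.7 in flox OC, 17.2 in KO BMM and 18.3 in flox BMM cells.

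Trem2 (ENSMUSG00000023992, chr17:48346401-48354147, plus strand) encodes a lipid-sensing receptor that signals through TYROBP. Its libraries held 401, 401 and 407 CPM in KO OC, 423, 411 and 399 CPM in flox OC, 790, 780 and 804 CPM in KO BMM, and 891, 951 and 905 CPM in flox BMM cells. OC libraries lay at about the same level in both genotypes and overlapped, while KO BMM lay below flox BMM. Trem2 was lower in OC than in BMM cells by log2 -0.97 ± 0.028 in KO and -1.16 ± 0.028 in flox cells (SE, adjusted p = 6.39e-33 and 3.47e-36). It was lower in KO BMM than in flox BMM cells by log2 -0.21 ± 0.028 (adjusted p = 1.15e-08), and in OC cells the difference was -0.029 (95% interval -0.086 to 0.028, adjusted p = 0.448). That genotype difference differed between OC and BMM by log2 0.18 ± 0.040 (adjusted p = 0.00044). In BMM cells 8 of 10 macrophage markers were also lower in KO and 2 higher, and their part in the Trem2 difference was not tested.

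The other TREM receptors were low. Trem1 averaged 0.704 CPM per kb in KO OC, 0.413 in flox OC, 1.29 in KO BMM and 1.59 in flox BMM cells, and Trem3 stayed between 0.512 and 0.974 CPM per kb in the same groups. By root mean square difference of gene-centred log2 CPM over the 12 libraries, among 9672 genes, the patterns most like that of Trem2 were those of Tmsb4x (0.053) and Pou6f1 (0.055).

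Oscar (ENSMUSG00000054594, chr7:3609813-3616157, minus strand, 5 exons) encodes the osteoclast-associated receptor, which binds collagen and signals through FCER1G. It had 1, 2 and 1 counts in KO OC, 1, 1 and 5 counts in flox OC, 2, 0 and 1 counts in KO BMM, and 1, 0 and 2 counts in flox BMM libraries. Counts of 0 to 5 in libraries of this depth do not separate the groups, and no fold or test is given. In the libraries with 0 counts, 3 counts would be 0.144 CPM in KO BMM replicate 2 and 0.155 CPM in flox BMM replicate 2, which is the level a count of 0 allows. This limit covers counting error only.

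Syk (ENSMUSG00000021457, chr13:52583173-52648792, plus strand, 14 exons) encodes the kinase that docks on the phosphorylated ITAM. Its libraries held 220, 221 and 232 CPM in KO OC, 245, 248 and 244 CPM in flox OC, 244, 249 and 252 CPM in KO BMM, and 235, 246 and 244 CPM in flox BMM cells. KO OC lay below every other group, and the other 3 groups overlapped. Syk was lower in KO OC than in flox OC cells by log2 -0.13 ± 0.029 (SE, adjusted p = 0.000221) and lower in KO OC than in KO BMM cells by -0.15 ± 0.029 (adjusted p = 1.85e-05). In BMM cells the genotype difference was 0.038 (95% interval -0.021 to 0.097), and with RANKL in flox cells the change was 0.023 (-0.035 to 0.082), neither called. The genotype difference itself differed between OC and BMM by log2 -0.17 ± 0.041 (adjusted p = 0.0016). With scaling by library size alone, the change of Syk with RANKL was -0.011 in KO cells (adjusted p = 0.739) and 0.19 in flox cells (adjusted p = 6.72e-08). Its relative Zap70, the kinase with this role in T cells, had 0 counts in KO OC, 1 in flox OC, 0 in KO BMM and 1 in flox BMM cells.

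Btk (ENSMUSG00000031264, chrX:134542336-134583570, minus strand, 22 exons) encodes the TEC family kinase known from B cells and myeloid cells. Its libraries held 136, 136 and 135 CPM in KO OC, 123, 124 and 127 CPM in flox OC, 131, 130 and 130 CPM in KO BMM, and 127, 120 and 126 CPM in flox BMM cells. KO libraries lay above flox libraries in each condition, and the flox groups overlapped each other. Btk was higher in KO OC than in flox OC cells by log2 0.12 ± 0.032 (SE, adjusted p = 0.00123), and in BMM cells the difference was 0.067 ± 0.032 (adjusted p = 0.0917). Without flox BMM replicate 1 the BMM difference was 0.090 (adjusted p = 0.0307), and with scaling by library size alone it was 0.10 (adjusted p = 0.00735). With RANKL the change was 0.056 in KO cells (95% interval -0.0073 to 0.12) and -1.6e-05 in flox cells (-0.065 to 0.065), neither called; scaling by library size alone gave 0.19 and 0.17, both called.

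Tec (ENSMUSG00000029217, chr5:72755718-72868483, minus strand, 19 exons), the other TEC family kinase of the set, was lower with RANKL. Its libraries held 28.2, 29.4 and 29.4 CPM in KO OC, 35.1, 33.7 and 35.9 CPM in flox OC, 63.1, 65.1 and 65.5 CPM in KO BMM, and 64.8, 66.2 and 67.6 CPM in flox BMM cells. All OC libraries lay below all BMM libraries, KO OC lay below flox OC, and the BMM groups overlapped. Tec was lower in OC than in BMM cells by log2 -1.16 ± 0.045 in KO, or 2.23-fold, and by -0.92 ± 0.043 in flox cells, or 1.90-fold (SE, adjusted p = 9.99e-28 and 1.51e-24). It was lower in KO OC than in flox OC cells by log2 -0.27 ± 0.049 (adjusted p = 1.37e-05), and in BMM cells the difference was -0.036 (95% interval -0.12 to 0.044). The difference between these was log2 -0.23 ± 0.063 (adjusted p = 0.00518).

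The within-library ratio of Tec to Btk per kb was 0.186 ± 0.00518 in KO OC and 0.243 ± 0.00590 in flox OC cells, and 0.430 ± 0.0102 in KO BMM and 0.462 ± 0.0170 in flox BMM cells (SD, n = 3 each). KO libraries lay below flox libraries in each condition, with an exact permutation p of 0.1, the smallest possible here. Of the other TEC family kinases, Bmx averaged 0.125 CPM per kb in KO OC, 0.0309 in flox OC, 0.465 in KO BMM and 0.225 in flox BMM cells. The patterns most like that of Tec were those of Arl4c (root mean square difference 0.059) and Tbc1d1 (0.062), over the 12 libraries.

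Blnk (ENSMUSG00000061132, chr19:40928927-40994535, minus strand, 17 exons), the scaffold that links SYK to BTK and PLCG2, went opposite ways with genotype in the conditions with and without RANKL. Its libraries held 156, 161 and 160 CPM in KO OC, 166, 170 and 175 CPM in flox OC, 209, 203 and 210 CPM in KO BMM, and 185, 192 and 188 CPM in flox BMM cells. No neighbouring groups overlapped, with KO above flox in BMM cells and KO below flox in OC cells. Blnk was lower in KO OC than in flox OC cells by log2 -0.10 ± 0.030 (SE, adjusted p = 0.00639) and higher in KO BMM than in flox BMM cells by 0.14 ± 0.030 (adjusted p = 0.000145). Without flox OC replicate 3 the OC difference was -0.081 with adjusted p = 0.0581. The 2 genotype differences differed by log2 -0.24 ± 0.043 (adjusted p = 2.09e-05). With RANKL, Blnk was lower by log2 -0.38 ± 0.030 in KO and by -0.15 ± 0.030 in flox cells (adjusted p = 5.38e-16 and 3.19e-05), and scaling by library size alone turned the change in flox cells to 0.023 (adjusted p = 0.482).

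Blnk is also a B cell gene, and B cell markers are therefore given beside it. The 10 markers summed to 13.2 to 14.1 CPM in KO OC, 16.4 to 18.5 in flox OC, 28.6 to 30.1 in KO BMM and 38.3 to 39.5 in flox BMM libraries. Vpreb3 was at 0 in both KO groups and Pax5 in both BMM groups. In BMM cells the marker sum was lower in KO while Blnk was higher, and in OC cells both were lower in KO. Ighm and Cd22 made up most of these sums, and every other marker averaged 1.11 CPM or less. Ighm was lower in KO by log2 -0.61 in BMM and -0.595 in OC cells, both called, and Ebf1 was also called lower in both. Cd22 had the other sign, at 0.042 in BMM and 0.21 in OC cells, neither called. The differences in the sum therefore mostly followed Ighm, and the part of B cells in the Blnk differences was not tested. The ratio of Blnk to Lcp2 (SLP-76), the related scaffold of T cells and myeloid cells, was 1.34 ± 0.0388 per kb in KO OC and 1.63 ± 0.0422 in flox OC cells (SD, n = 3 each, exact permutation p = 0.1, the smallest possible). In BMM cells it was 1.11 ± 0.0277 in KO and 1.08 ± 0.0503 in flox cells, which overlapped (exact permutation p = 0.5).

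Plcg2 (ENSMUSG00000034330, chr8:117498291-117635140, plus strand, 33 exons) encodes the phospholipase at the end of this kinase chain. Its libraries held 245, 240 and 245 CPM in KO OC, 222, 221 and 225 CPM in flox OC, 264, 265 and 270 CPM in KO BMM, and 264, 254 and 240 CPM in flox BMM cells. KO OC lay above flox OC, and the BMM groups overlapped. Plcg2 was higher in KO OC than in flox OC cells by log2 0.13 ± 0.030 (SE, adjusted p = 0.000603). In BMM cells the difference of 0.073 ± 0.030 was just called (adjusted p = 0.0476), and that call held in 3 of 19 alternatives, with adjusted p between 0.00114 and 0.294. With RANKL it was lower by log2 -0.13 ± 0.030 in KO and by -0.18 ± 0.030 in flox cells (adjusted p = 0.00013 and 4.58e-07), changes that were 0.0039 and -0.015 with scaling by library size alone, neither called. Per kb, Plcg1 averaged 2.31 CPM in KO OC, 2.13 in flox OC, 3.02 in KO BMM and 3.23 in flox BMM cells, against 56.6, 51.9, 62.0 and 58.9 for Plcg2 in the same order. The within-library ratio of Plcg2 to Plcg1 was 24.6 ± 1.62 in KO OC and 24.3 ± 0.786 in flox OC cells, which overlapped (SD, n = 3 each, exact permutation p = 0.8). In BMM cells it was 20.5 ± 1.13 in KO and 18.2 ± 0.996 in flox cells (exact permutation p = 0.1, the smallest possible).

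Vav3 (ENSMUSG00000033721, chr3:109340653-109685698, plus strand, 29 exons), the exchange factor known for its role in osteoclast function, had the largest change with RANKL of the 9 tested genes. Its libraries held 22.8, 21.4 and 22.2 CPM in KO OC, 23.7, 26.4 and 27.0 CPM in flox OC, 72.9, 71.1 and 68.5 CPM in KO BMM, and 66.9, 61.7 and 62.7 CPM in flox BMM cells. All OC libraries lay far below all BMM libraries, and KO lay below flox in OC cells and above flox in BMM cells. Vav3 was lower in OC than in BMM cells by log2 -1.68 ± 0.050 in KO, or 3.20-fold, and by -1.31 ± 0.050 in flox cells, or 2.48-fold (SE, adjusted p = 2.81e-32 and 3.08e-28). It was lower in KO OC than in flox OC cells by log2 -0.21 ± 0.059 (adjusted p = 0.0031) and higher in KO BMM than in flox BMM cells by 0.15 ± 0.043 (adjusted p = 0.00333). The 2 genotype differences differed by log2 -0.36 ± 0.073 (adjusted p = 0.000142).

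The other VAV family genes give a scale for Vav3. Per kb, Vav1 averaged 48.9 CPM in KO OC, 45.5 in flox OC, 69.4 in KO BMM and 71.5 in flox BMM cells, and Vav2 averaged 5.65, 5.02, 5.16 and 4.54 CPM in that order. The within-library ratio of Vav3 to Vav1 was 0.0754 ± 0.00154 in KO OC and 0.0940 ± 0.00659 in flox OC cells, and 0.170 ± 0.00674 in KO BMM and 0.149 ± 0.00478 in flox BMM cells (SD, n = 3 each). KO lay below flox in OC and above it in BMM cells without overlap, each with an exact permutation p of 0.1, the smallest possible. The patterns most like that of Vav3 were those of Arhgap25 (root mean square difference 0.10), and Ccl3 (0.11), over the 12 libraries.

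**Figure D2:**
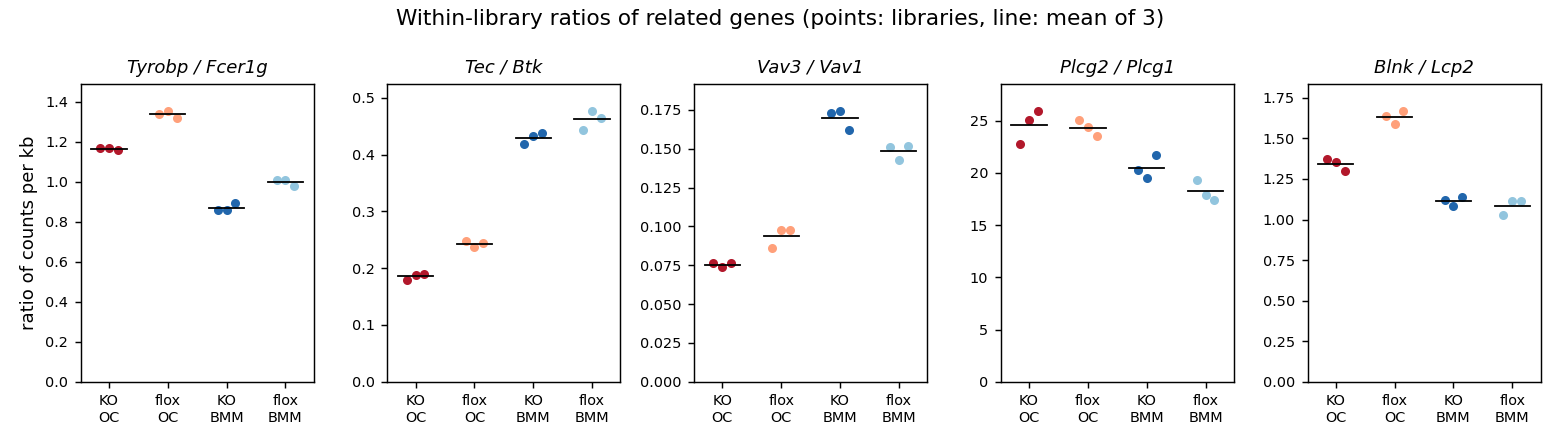
Ratios of counts per kb between related genes inside each library (y axes, linear from 0) by group (x axes); points are libraries and lines the means of 3. KO lies below flox in both conditions for Tyrobp to Fcer1g and for Tec to Btk, while for Vav3 to Vav1 KO is above flox in BMM (0.170 against 0.149) and below it in OC (0.0754 against 0.0940).

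Read by comparison, the genotype differences in OC cells ran both ways. Tyrobp, Syk, Tec, Blnk and Vav3 were lower in KO and Plcg2 and Btk were higher, while Fcer1g and Trem2 were not called. Of all tested genes 19.9% were called lower and 21.4% higher. In these cells 8 of 9 tested osteoclast markers were lower in KO, and so were 9 of 9 tested stromal markers, which summed to 58.6 to 68.7 CPM in KO OC and 192 to 195 CPM in flox OC cells. Their part in the differences of the 9 genes was not tested. Stromal markers (10 genes) were lower in KO BMM cells too, 9 of 9 tested, at 71.6 to 82.2 CPM in KO BMM and 226 to 250 CPM in flox BMM cells. In BMM cells Tyrobp and Trem2 were lower in KO and Blnk, Vav3 and Plcg2 were higher, while Fcer1g, Syk, Btk and Tec were not called. Of all tested genes 20.6% were called lower and 19.3% higher. The genotype difference changed with RANKL for Trem2, which was less low in KO in OC cells, and for Syk, Tec, Blnk and Vav3, which were lower in KO relative to flox in OC than in BMM cells. The comparisons between genotypes and those with RANKL share libraries, so their values are given side by side and not as separate evidence.

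**Figure D3:**
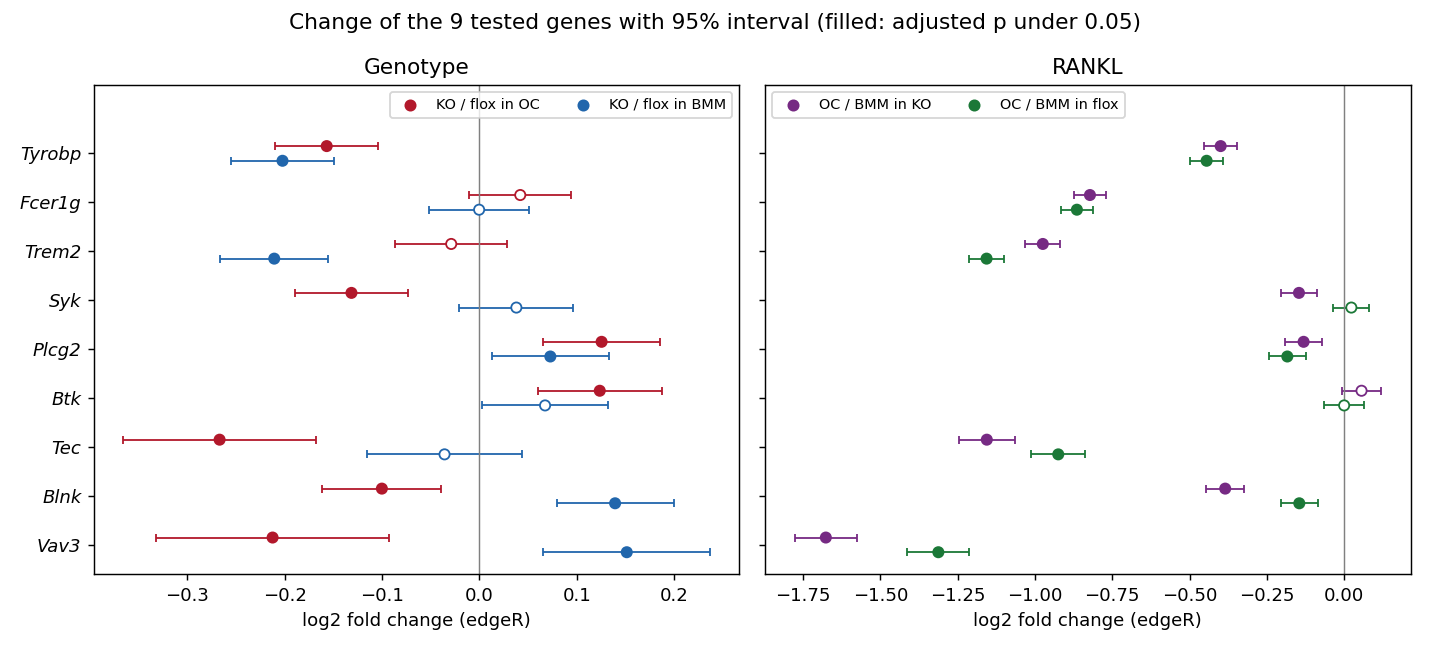
Log2 fold changes from edgeR (x axes) of the 9 tested genes (y axis), with 95% intervals; filled points have an adjusted p under 0.05. At left KO over flox is shown in OC and BMM cells, with Blnk and Vav3 on opposite sides of 0 (Blnk -0.10 and 0.14); at right OC over BMM is shown in KO and flox cells, with Vav3 farthest from 0 (-1.68 and -1.31). Plcg2 in KO, Btk in flox and Blnk in flox cells change sign at right when libraries are scaled by size alone.

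Beyond these genes, 4 lists of the wider pathway were tested with the same fit. Over all tested genes 21.4% were higher and 19.9% lower in KO OC than in flox OC cells, 19.3% and 20.6% in KO BMM than in flox BMM cells, 35.5% and 35% in OC than in BMM cells of KO, and 37% and 37.8% in those of flox. Of 23 tested receptors that couple to ITAM adaptors, 14 were higher (60.9%) and 4 lower (17.4%) in KO OC than in flox OC cells, with a median log2 of 0.30 against 0.0060 over all genes. In KO BMM against flox BMM cells 3 were higher (13%) and 9 lower (39.1%), with a median of -0.090 against 0.00081. Macrophage markers moved with these counts. Of 10 markers, 6 were higher and 2 lower in KO OC than in flox OC cells, and 2 higher and 8 lower in KO BMM than in flox BMM cells. The interaction was called higher for 9 of 10 markers and 13 of the 23 receptors, against 12.3% of all tested genes. In the lists below it was higher for 14 of 30 kinases and adaptors, 9 of 18 inhibitory genes and 2 of 19 calcium and NFAT genes. It was called lower for 0 markers, 0 receptors, 1 kinase or adaptor, 0 inhibitory genes and 5 calcium and NFAT genes, against 9.53% of all genes. Fcgr1 is on both the marker and the receptor list. The part of the markers in the counts of these lists was not tested. Among the 14 receptors higher in KO OC cells, several were low. Trem1, Treml2, Sirpb1a, Sirpb1b, Pilrb1, Pilrb2 and Fcgr4 averaged 5.24 CPM or less in both OC groups. In OC cells the SIRP-beta receptor Sirpb1c, whose reads can be shared with its near-identical relatives, averaged 8.37 ± 0.495 CPM in KO and 3.86 ± 0.198 in flox (log2 1.11, adjusted p = 7.56e-12), and Plxna1, a semaphorin receptor that associates with TREM2 and TYROBP, averaged 606 ± 11.1 in KO and 449 ± 6.58 in flox (log2 0.43, adjusted p = 3.99e-11). In BMM cells the high-affinity Fc receptor Fcgr1, which signals through FCER1G, averaged 143 ± 2.77 CPM in KO and 198 ± 6.14 in flox (log2 -0.47, adjusted p = 6.47e-17). With RANKL 6 receptors were higher (26.1%) and 13 lower (56.5%) in KO cells, and 6 higher (26.1%) and 16 lower (69.6%) in flox cells. Fcgr3, another partner of FCER1G, averaged 105 ± 2.25 CPM in KO OC against 566 ± 13.9 in KO BMM, and 89.4 ± 1.46 in flox OC against 559 ± 12.1 in flox BMM cells (log2 -2.43 and -2.64, adjusted p = 8.54e-48 and 3.31e-49; SD, n = 3 each).

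Of 30 tested other kinases and adaptors, 15 were higher (50.0%) and 7 lower (23.3%) in KO OC than in flox OC cells, the second near the share of all genes. In KO BMM against flox BMM cells 7 were higher (23.3%) and 9 lower (30.0%), the first near the share of all genes. The lower count in OC cells was 4 without flox OC replicate 3 or with no low-count filter. The Src family kinases, which phosphorylate the ITAM, did not move together. Src averaged 71.8 ± 1.79 CPM in KO OC and 104 ± 1.13 in flox OC (log2 -0.53, adjusted p = 3.15e-17), whereas Fgr averaged 216 ± 7.61 in KO OC and 143 ± 2.45 in flox OC cells (log2 0.59, adjusted p = 5.37e-20). With RANKL 7 were higher (23.3%) and 22 lower (73.3%) in KO cells, and 4 higher (13.3%) and 24 lower (80.0%) in flox cells. Src was among the higher, with 71.8 ± 1.79 CPM in KO OC against 3.38 ± 0.116 in KO BMM and 104 ± 1.13 in flox OC against 6.47 ± 0.487 in flox BMM cells (adjusted p = 3.33e-44 and 8.22e-46; SD, n = 3 each). Malt1, the paracaspase of the CARD9 branch, averaged 73.8 ± 0.692 CPM in KO OC and 127 ± 0.325 in flox OC cells (log2 -0.79, adjusted p = 1.52e-24).

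A further list held genes grouped by name as inhibitory, and whether each opposes ITAM signals in these cells was not tested. Of the 18 tested, 10 were higher (55.6%) and 4 lower (22.2%) in KO OC than in flox OC cells. The second share lay near that of all genes. In KO BMM against flox BMM cells 2 were higher (11.1%; 5 genes with scaling by library size alone) and 8 lower (44.4%). The sialic acid receptor Cd33 averaged 22.6 ± 0.539 CPM in KO OC and 5.88 ± 0.281 in flox OC, and 74.8 ± 0.793 in KO BMM and 27.2 ± 3.37 in flox BMM cells (log2 1.94 and 1.46, adjusted p = 3.06e-24 and 1.13e-27). Of 19 calcium and NFAT genes, 4 were higher (21.1%) and 8 lower (42.1%) in KO OC than in flox OC cells, and 3 were higher (15.8%) and 7 lower (36.8%) in KO BMM than in flox BMM cells. The higher counts lay near the shares of all genes. Nfatc1, the transcription factor that this chain activates in osteoclasts, averaged 198 ± 3.78 CPM in KO OC and 350 ± 1.82 in flox OC (log2 -0.82, adjusted p = 1.36e-28), and 116 ± 1.79 in KO BMM and 99.3 ± 2.60 in flox BMM cells. Rcan1, a calcineurin regulator and NFAT target, averaged 50.6 ± 2.82 CPM in KO OC and 124 ± 1.84 in flox OC cells (log2 -1.29, adjusted p = 7.55e-31; SD, n = 3 each). Nfatc1 and Rcan1 were named for the size of their differences in this comparison, so they do not stand for their list. The differences of the 9 tested genes in OC cells did not go beyond log2 -0.27. Their median absolute log2 difference was 0.13, beside 0.13 for the 19 calcium and NFAT genes. With RANKL 3 inhibitory genes were higher (16.7%) and 12 lower (66.7%) in KO cells, and 1 was higher (5.56%) and 14 lower (77.8%) in flox cells. Of the calcium and NFAT genes 9 were higher (47.4%) and 6 lower (31.6%) in KO cells and 7 higher (36.8%) and 8 lower (42.1%) in flox cells, most of these near the shares of all genes. The 3 higher inhibitory genes in KO cells were 1 without KO BMM replicate 3 or KO OC replicate 1, and the 1 in flox cells was 3 without flox BMM replicate 1.

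**Figure D4:**
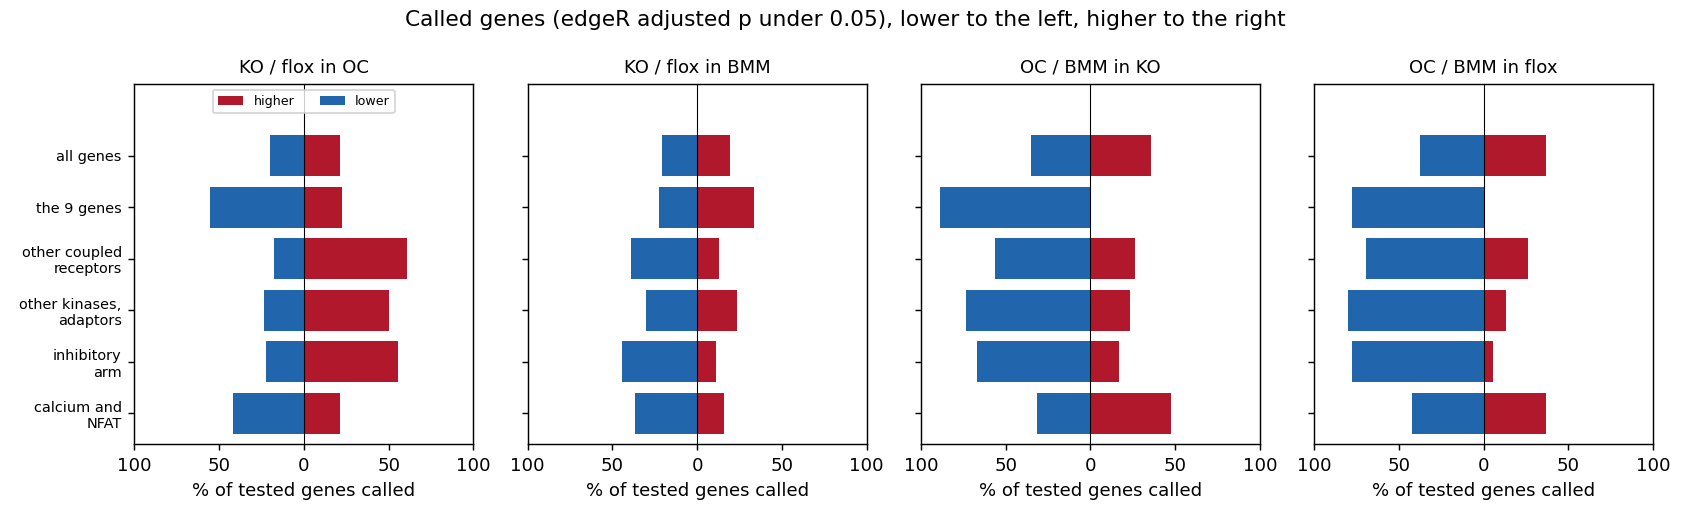
Share of tested genes called lower (to the left) and higher (to the right) in percent (x axes), for all genes, the 9 tested genes and 4 lists of the wider pathway (y axis), in 4 comparisons. The 9 genes have 5 lower and 2 higher in KO OC against flox OC, where the receptors have 14 of 23 higher, and 0 higher with RANKL in both genotypes (1 and 2 higher with scaling by library size alone).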

How the data were processed

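RNA selected with oligo-dT was sequenced as 12 libraries, and the deposited values are raw read counts per gene, not normalized. Per the submitters' processing notes, alignment was with STAR 2.0.4b on GRCm38 and counting with featureCounts; per the file headers, the version was 1.4.5-p1, exons were summed by gene over the Ensembl release 76 annotation, and strand was ignored. None of the 10 genes shares exon bases with another gene of that annotation.

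Counts were tested with edgeR 4.0.16 (R 4.3.3; TMM, filterByExpr, robust quasi-likelihood F test, 4 group means over 12 libraries), with Benjamini-Hochberg adjustment over 13030 tested genes and a threshold of 0.05. The 5 contrasts were KO against flox in OC and in BMM cells, OC against BMM in KO and in flox cells, and their interaction. Genes without a symbol (1134 of 41388) held 0.136% of counts and stayed in. Replicate pairs differed by 1.23 to 5.05 times sampling noise (chi-square per degree of freedom), so all were kept, and the common coefficient of variation beyond counting noise was 2.54%. Ratios used exact two-sided permutation tests (scipy). The fit was tested on simulated counts with known changes.

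The 19 alternatives were RLE factors, library size alone, no low-count filter, at least 1 CPM in 3 libraries, DESeq2 1.42.0, only the 2 groups compared, a replicate block, and leaving out each of 12 libraries. The genes and all lists were chosen with earlier results of these data known. Besides the 10 genes and Asxl2, named genes were up to 3 called genes per list and comparison by absolute log2 change, of 5 CPM or more in whichever group was higher, and the 2 genes most alike in pattern to each member whose group means spanned at least 1 on the log2 scale; relatives in the same protein families were added after values were seen. Some genes that this rule or these lists name are not reported here. Pathway symbols not found in the annotation (2) were not used. ITAM patterns were read from GENCODE M21 coding transcripts and promoters from RefSeq.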

Additional observations from a re-analysis of the deposited data

Results flagged for a closer look

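The genotype difference (KO against flox) differed between OC and BMM cells for 5 of the 9 tested genes. These were called by the interaction term of the edgeR fit at an adjusted p under 0.05. By the same term 21.9% of all tested genes were called, 12.3% higher and 9.53% lower. On the log2 scale, as the difference in OC minus that in BMM cells, the values were 0.18 for Trem2, -0.17 for Syk, -0.23 for Tec, -0.24 for Blnk and -0.36 for Vav3. The negative ones mean that the gene was lower in KO relative to flox in OC than in BMM cells.

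Among the named genes of the wider pathway the same term was called for receptors at 0.78 for Treml4, 0.87 for Sirpb1a, 0.76 for Sirpb1c, 0.62 for Fcgr1, 0.21 for Fcgr3 and 0.37 for Clec4n. For kinases and adaptors it was 0.40 for Src, 0.49 for Fgr, 0.12 for Pik3ap1, 0.42 for Prkcb and -0.46 for Malt1. For inhibitory genes it was 0.69 for Sirpa, 0.65 for Cd300lf, 0.67 for Pilra, 0.28 for Sla, 0.48 for Cd33 and 0.93 for Siglece. For calcium and NFAT genes it was 0.44 for Itpr1, -0.21 for Orai1, -0.23 for Orai2, -0.19 for Camk2d, -0.84 for Rcan1 and -1.05 for Nfatc1. No rule for single outlying values was applied within groups of 3 libraries; fits with each library left out stand with the other alternatives.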

How the results depend on the processing

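Under the 19 alternatives, 800 member values kept direction and side of the threshold, 6 became called, 19 lost their call and 21 changed sign. With scaling by library size alone, members called higher were 5 in BMM, 1 with RANKL in KO and 2 with RANKL in flox cells (3, 0 and 0 with TMM), and with only the groups compared in the fit 1 was higher with RANKL in KO cells. Signs turned only where the value was near 0 or under library size alone. Fcer1g in BMM was 0.035 with library size alone, 0.0086 with no low-count filter, 0.0032 with DESeq2, and -0.0057 to 0.016 with single libraries left out. Btk with RANKL in flox cells was 0.0016 with RLE factors, 0.17 with library size alone, 0.0044 with at least 1 CPM in 3 libraries, 0.0046 with DESeq2, 0.0091 with only the groups compared, and -0.024 to 0.018 with single libraries left out. With library size alone, Plcg2 with RANKL in KO cells was 0.0039 and Blnk with RANKL in flox cells 0.023. The share of called genes that were higher was 59.9% in BMM under library size alone (48.3% with TMM) and 43.3% for the interaction (56.4% with TMM). Replicate numbers did not pair libraries (correlations of deviations -0.042 to 0.052), and with the replicate block Plcg2 in BMM was 0.073 (adjusted p = 0.0582), the only member call it changed. Pathway list counts and named pathway genes were run under the same alternatives, chosen after seeing the data: 737 list counts stayed within 1.5 times and 15 did not, and all 1128 values of named genes kept direction and call. Kinases and adaptors higher with RANKL numbered 4 in KO cells with no low-count filter or DESeq2 (7 in the reported fit) and 7 in flox cells with library size alone (4). Inhibitory genes higher with RANKL numbered 6 in KO cells with library size alone, 5 with only the groups compared and 1 with no low-count filter (3), and 4 in flox cells with library size alone (1). Kinases and adaptors with a negative interaction numbered 3 with library size alone or without flox BMM replicate 1 (1). At this depth Oscar, with 0 to 5 counts per library, did not pass the low-count filter.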
